A study of Mus musculus with 265 samples.

Results

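Single-cell ATAC-seq regions that overlapped an exon of a protein-coding gene, while their midpoint lay more than 1 kb from the start of every protein-coding gene, were examined in ERt2-Ikaros inducible B3 cells, a mouse pre-B cell line. The rule used only gene models, not the signal, and 1478 of the 20103 regions of the count matrix met it. The other regions were 8786 start-site regions, 4508 intronic regions and 5331 intergenic regions. Cells at 0 h carried the ERt2-Ikaros construct and had not received 4-hydroxytamoxifen (4OHT), and cells at 24 h carried the same construct and had been induced with 4OHT for 24 hours. All cells came from this 1 line, and 24 h cells kept without 4OHT were not analysed here, so the effects of 4OHT and of time in culture cannot be told apart. The 227 cells were captured in 4 Fluidigm C1 runs, microfluidic captures that isolate single cells, with 48 and 47 cells in runs 1 and 2 at 0 h and 60 and 72 cells in runs 3 and 4 at 24 h.

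ATAC-seq uses a transposase that inserts sequencing adapters where DNA is not wrapped around nucleosomes, so most of its signal falls at promoters and enhancers. Exons are usually covered by nucleosomes, and open exonic DNA is known mainly from first exons, which lie just downstream of a transcription start. Many genes have several annotated promoters, so an exon far from the outermost start of a gene can still be the first exon of another transcript. Ikaros, the product of Ikzf1, is a zinc finger transcription factor that binds DNA with a GGGAA core and drives pre-B cells out of the cell cycle. In the ERt2 fusion, 4OHT lets the protein enter the nucleus.

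Ikzf1 itself held the most exonic regions of any gene, 5, and all of them lay in its coding sequence. Their sequences, with those of 3 regions in a single long exon of Cmya5 and of the exonic region found in every cell, are shown as the forward strand of mm10, with annotated coding bases in capitals and intronic or flanking bases in lower case. The Ikzf1 regions were chr11:11707784-11707919, chr11:11753995-11754124, chr11:11761208-11761343, chr11:11769144-11769226 and chr11:11769260-11769267, and they touched coding exons 2, 5, 7 and 8 of the 8 coding exons merged over its transcripts, in this order, with the last pair in exon 8. The Cmya5 regions were chr13:93094220-93094392, chr13:93094714-93094855 and chr13:93095503-93095659. The region of Gm21738, a predicted gene, was chr14:19415788-19415941. Positions are given as deposited and were read as counted from 1.
Ikzf1 exon 2: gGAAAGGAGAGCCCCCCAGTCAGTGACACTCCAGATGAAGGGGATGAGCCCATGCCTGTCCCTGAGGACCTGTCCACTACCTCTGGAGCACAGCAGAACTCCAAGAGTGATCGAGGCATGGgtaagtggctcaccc
Ikzf1 exon 5: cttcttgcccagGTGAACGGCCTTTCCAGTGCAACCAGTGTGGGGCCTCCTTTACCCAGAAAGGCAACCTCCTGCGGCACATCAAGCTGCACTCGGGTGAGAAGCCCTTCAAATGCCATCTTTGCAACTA
Ikzf1 exon 7: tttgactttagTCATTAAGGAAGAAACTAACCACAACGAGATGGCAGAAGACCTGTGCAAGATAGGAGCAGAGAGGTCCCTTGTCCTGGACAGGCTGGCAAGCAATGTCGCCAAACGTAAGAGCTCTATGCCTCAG
Ikzf1 exon 8, first region: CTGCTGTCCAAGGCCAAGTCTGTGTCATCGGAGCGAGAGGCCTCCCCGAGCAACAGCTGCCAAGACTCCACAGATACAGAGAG
Ikzf1 exon 8, second region: CCTAACCA
Cmya5, region at 93094220: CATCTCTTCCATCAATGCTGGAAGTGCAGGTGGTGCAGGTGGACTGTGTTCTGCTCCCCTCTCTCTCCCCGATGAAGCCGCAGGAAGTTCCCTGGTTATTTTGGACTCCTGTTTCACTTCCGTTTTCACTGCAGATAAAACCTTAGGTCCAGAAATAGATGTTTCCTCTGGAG
Cmya5, region at 93094714: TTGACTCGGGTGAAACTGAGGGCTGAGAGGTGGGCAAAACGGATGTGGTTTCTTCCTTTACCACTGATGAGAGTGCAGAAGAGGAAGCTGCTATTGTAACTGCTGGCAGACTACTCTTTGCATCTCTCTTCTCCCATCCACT
Cmya5, region at 93095503: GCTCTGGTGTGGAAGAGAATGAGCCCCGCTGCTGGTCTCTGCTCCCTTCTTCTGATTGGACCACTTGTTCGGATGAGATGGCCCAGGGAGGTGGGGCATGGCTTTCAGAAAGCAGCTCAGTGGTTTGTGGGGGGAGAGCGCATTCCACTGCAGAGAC
Gm21738: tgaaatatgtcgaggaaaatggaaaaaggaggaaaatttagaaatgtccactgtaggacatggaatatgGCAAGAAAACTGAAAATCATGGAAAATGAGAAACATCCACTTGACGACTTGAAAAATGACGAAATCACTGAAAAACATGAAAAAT

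In the first 3 of these Ikzf1 regions the capitals make up 88.2%, 90.8% and 91.9% of the bases. The region in exon 2 began 1 base before the exon and ended 15 bases after it, and those in exons 5 and 7 began 12 and 11 bases before their exons, of 168 and 143 bases, and ended 50 and 18 bases before the exon ends. The GGGAA core was absent from both strands of all 5 Ikzf1 sequences and of the Gm21738 sequence, and it occurred once among the 3 Cmya5 sequences, in the region at 93094220.

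The data were sparse. The runs held 164357, 92639, 122586 and 142611 counts, with a median of 2898, 1787, 1839.5 and 1676 counts per cell in runs 1 to 4, so shares of cells with a count are lower in shallow runs and changes over time were read from normalized counts. The share of all counts in start-site regions was 51.0% and 48.5% at 0 h and 58.3% and 66.4% at 24 h, with run 4 farthest from the other runs. Of the pre-B cell markers, 8 of 11 had a region within 1 kb of their start, found in up to 38 cells at Ebf1, while Rag1 and Rag2 were among those with none. None of the 4 T cell markers and neither of the 2 erythroid markers in the annotation had one, and of the 4 myeloid markers only Lyz2 did, in 6 cells.

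Most exonic regions lay at the start of another transcript. Of the 1478, 970 (65.6%) had their midpoint within 1 kb of an annotated transcript start of a protein-coding gene other than the gene's outermost start, and 739 (50.0%) within 100 bp of one. For 961 of the 970 this transcript belonged to the gene whose exon was overlapped. The same held for 733 of the 4508 intronic regions (16.3%). The remaining 508 exonic regions were beyond 1 kb of every transcript start, and of these 30 lay within 1 kb of the start of a non-coding gene. The count near a transcript start was 958 without transcripts annotated as incomplete at their 5' end, and 816 with only transcripts of the protein-coding type.

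**Figure D1:**
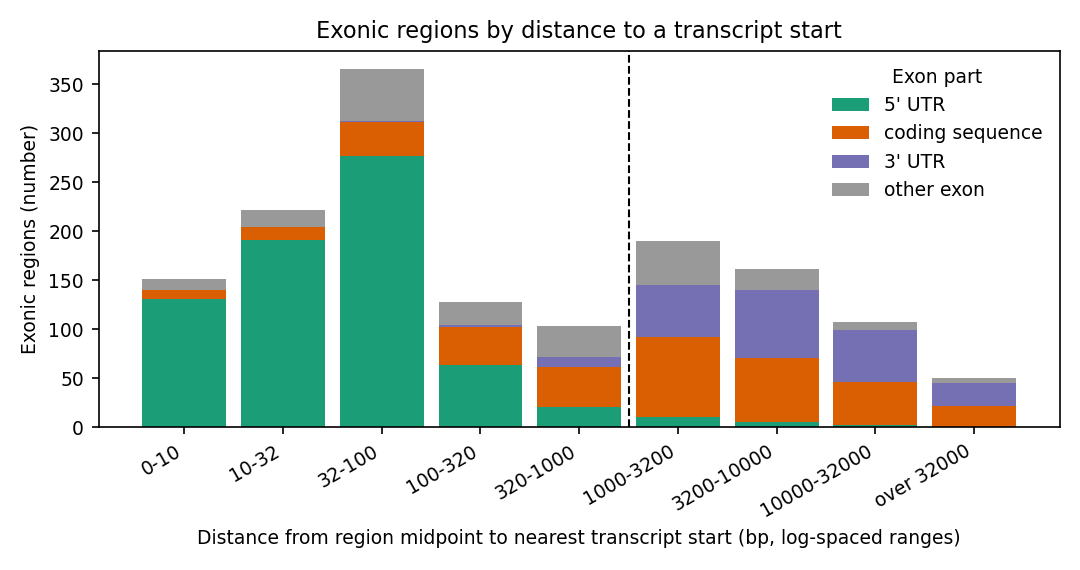
Number of exonic regions by the distance (bp, log-spaced ranges) from their midpoint to the nearest transcript start, coloured by exon part; the dashed line marks 1000 bp. Regions in the 5' UTR make up most of the ranges up to 100 bp, and regions in the 3' UTR lie almost all to the right of the line.

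The exon part with the most bases in a region split the members sharply. Any overlap with an exon sufficed, so a region named after a part can lie partly outside exons. Wholly in exons were 717 members. The 5' UTR, the stretch of a messenger RNA before the start codon, held 700 regions (47.4%), and 683 of them were within 1 kb of a transcript start. Coding sequence held 350 regions, of which 136 were near a transcript start. The 3' UTR, which follows the stop codon, held 212 regions, of which 14 were. A further 216 regions, called other exons, had no coding or UTR base in any transcript of the protein-coding type. Of these, 137 were near a transcript start. By place in the transcripts of the protein-coding type, 631 regions (42.7%) touched first exons only, 262 last exons only and 238 internal exons only. The members belonged to 1308 genes, of which 1157 had 1 exonic region, 134 had 2, 16 had 3 and Ikzf1 alone had 5. The rule's limit fell in a continuous spread: the closest member was 1002 bp from a gene start, 46 members lay within 100 bp outside the limit, and 41 start-site regions with an exon lay within 100 bp inside it.

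Exonic regions near a transcript start resembled start-site regions in base composition, and the others resembled intronic regions. In windows of 150 bp centred on the region, the median GC content was 64.7% in the 970 regions near a transcript start and 65.3% in start-site regions. It was 55.3% in the 508 regions beyond, and 52.7% in intronic regions. The CpG ratio, the number of CpG dinucleotides over the number their C and G content would give, had a median of 0.759 near a transcript start, 0.303 beyond, 0.855 at start sites and 0.24 in introns. The regions were alike in width, with a median of 144 bp near a transcript start and 133.5 bp beyond.

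Letters of known binding motifs were compared in the same windows. TGTGGT, the Runx motif, was in 21.5% of the windows beyond transcript starts and 9.18% of those near one, against 24.6% of intronic and 5.53% of start-site windows. CANNTG, the E-box bound by E2A and other helix-loop-helix factors, was in 59.6% and 43.4%, against 62.5% and 34.9%. The CTCF core was in 6.69% of windows beyond and 1.96% near, and reached 8.02% of the 3' UTR windows, against 0.76% at start sites and 6.60% between genes. GGGAA, the Ikaros core, was in 38.6% of windows beyond and 36.6% of those near. Its share ran from 31.1% in coding sequence to 45.8% in the 3' UTR, with 38.0% at start sites and 42.1% in introns. GGAA, which GGGAA contains, was in 85.6% beyond and 78.9% near. The AP-1 motif TGANTCA was in 3.35% of windows beyond and 2.78% of those near, against 1.66% at start sites, 5.90% in introns and 5.97% between genes, so in both groups it was rarer than in introns. The IRF motif was in 0.787% beyond and 0.825% near. All motifs were searched on both strands, and a match is a run of letters rather than a bound site. Base composition differed between these groups by the values above, and its part in the motif shares was not tested.

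Exonic regions were found in few cells. The median region had a count in 13 of 227 cells, as in all regions together, with quartiles of 8 and 20 cells. The median was 17 cells in the 5' UTR, 10 in coding sequence, 9.5 in the 3' UTR and 11 in other exons, beside 19 at start sites and 10 in introns. A total of 384 exonic regions were found in at least 20 cells and 22 in at least 50, and 478 had no count in at least 1 run.

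The 12 exonic regions found in most cells were, with 2 exceptions, in the 5' UTR within 102.5 bp of a transcript start. Actl6a, which encodes a subunit of the BAF chromatin remodelling complex, had a count in 65 cells, in 18, 6, 14 and 27 cells of runs 1 to 4, 70.5 bp from a transcript start and 2322.5 bp from the gene start. Ing1, a reader of histone H3 methylation, followed with 63 cells (16, 10, 15 and 22), and Gpx4, which reduces lipid peroxides, with 62 (11, 5, 17 and 29). Homer1, a synaptic scaffold, had 57 cells (19, 10, 9 and 19), 37.5 bp from a transcript start. The time-points overlapped in Actl6a and Homer1, and both 24 h runs were higher in normalized level in Ing1 (164 and 146 CPM at 0 h, 186 and 249 CPM at 24 h) and in Gpx4, though in Ing1 not in the number of cells. Fancc, Dhcr7, Srrm2 and Flna had 54 cells each, and Rps6ka5 and Srebf1 had 53 each. Srebf1, a master regulator of lipid synthesis, was in 8, 8, 14 and 23 cells.

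The exceptions were Rnf180 and Gm21738. The Rnf180 region lay in the 3' UTR of this ubiquitin ligase gene, 65946.5 bp from the nearest transcript start, and had a count in 56 cells. Its normalized level was 194, 198 and 202 CPM (counts scaled to the same effective library size in every run) in runs 1, 2 and 3 and 44.0 CPM in run 4, so run 4 alone was low and the time-points overlapped. The Gm21738 region had a count in all 227 cells, with 576, 982, 970 and 1056 CPM, and no other exonic region was found in more than 65 cells. Its bases are wholly marked as repeat in the genome sequence, and the genome holds 163 copies of it at 90% identity over 80% of its length, so its counts cannot be assigned to this place.

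Such repeated sequence was rare among the members. More than 1 copy in the genome was found for 43 exonic regions (2.91%), against 2.16% of start-site, 1.89% of intronic and 6.21% of intergenic regions. Only 4 had over 10 copies. These were a 3' UTR region of Zfp773 with 271 copies in 9 cells, that of Gm21738, an other-exon region of Zbtb20 with 154 copies in 5 cells, and a 5' UTR region of Zfp981 with 15 copies in 35 cells. The bases were 100% marked as repeat in the Zfp773 region, and the Zfp981 region had none so marked. Counts of these 4 regions cannot be assigned to 1 place. For 9 exonic regions, no match at these limits was found, not even their own place, as they were too short.

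Ikzf1 stood apart in the number of coding exons with a region. Regions overlapped 4 of its 8 merged coding exons, while the next genes had regions in 2 coding exons (13 genes) and 402 genes had a region in 1. Coding sequence makes up 1.83% of the 87924 bp of the gene, yet 5 of the 9 regions inside the gene were coding, and the other 4 were intronic and found in 6 to 10 cells. No region lay within 4.1 kb of the gene start, the promoter of the longest transcripts. None of the 5 was within 30 kb of a transcript start except the region in exon 2, at 21406.5 bp, which had a count in only 5 cells.

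The first region of exon 8 was the most often found of the 5. It had a count in 41 cells, with 72.8 and 104 CPM in runs 1 and 2 and 56.6 and 147 CPM in runs 3 and 4, so the time-points overlapped and the log2 change was 0.24 ± 0.65 (SE). The second region of exon 8, 8 bp long, was found in 17 cells, and those of exons 5, 7 and 2 in 10, 9 and 5 cells. Any of the 5 had a count in 33.3% of cells of run 1 (95% exact interval 20.4 to 48.4%), 27.7% of run 2 (15.6 to 42.6%), 23.3% of run 3 (13.4 to 36.0%) and 30.6% of run 4 (20.2 to 42.5%), and 65 cells in all. These intervals cover counting error only. Summed over the 5 regions, the level was 170 and 261 CPM at 0 h and 202 and 227 CPM at 24 h, with an exact permutation p of 1 (two-sided, 4 runs). The cells carry an Ikaros construct at both time-points, and fragments of its coding sequence cannot be told apart from fragments of the endogenous exons in these counts.

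**Figure D2:**
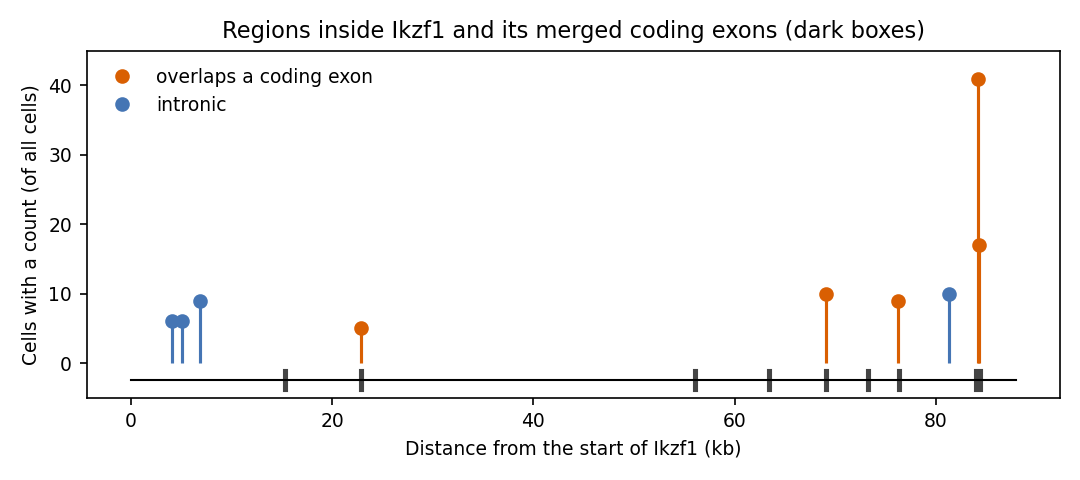
Regions inside Ikzf1 by the distance of their midpoint from the gene start (kb) and the number of cells with a count, of 227; dark boxes are the merged coding exons. The 5 exonic regions sit on exon positions, the highest at 41 cells, and the 4 intronic regions reach at most 10 cells.

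The next genes by number of exonic regions differed in where the regions lay. In Cmya5, a muscle gene, the 3 regions lay within 1.5 kb of coding sequence about 50 kb from any transcript start of a protein-coding gene and 527, 48.5 and 748 bp from the start of the non-coding gene A630019I02Rik, and the strongest, at 93095503, was found in 40 cells with 176, 104, 137 and 95.3 CPM. Dgkz, a diacylglycerol kinase, had 3 regions, each within 62 bp of a transcript start and over 10 kb from the gene start. One of these, at 91963644, had 42.5 and 10.4 CPM at 0 h and 64.7 and 227 CPM at 24 h, higher in both 24 h runs, though its log2 change of 2.29 ± 0.76 did not pass the test (adjusted p = 0.21, edgeR). Zbtb7a, a transcriptional repressor also known as LRF, had 3 regions in its 5' UTR, the strongest in 38 cells with 48.5 and 83.6 CPM at 0 h and 137 and 139 CPM at 24 h. Plec had 3 regions, each within 97 bp of a transcript start and over 33 kb from the gene start. The 3 regions of Ptp4a3 were found in 11, 27 and 13 cells.

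The comparison of 24 h with 0 h asks which exonic regions opened or closed after Ikaros was induced. No exonic region passed an adjusted p of 0.05 in edgeR's quasi-likelihood test in either direction. Over all regions 0.0149% were called higher at 0 h and 0.0398% higher at 24 h. At an unadjusted p under 0.05, 100 exonic regions were higher at 0 h (6.77%, against 7.0% of all regions) and 72 higher at 24 h (4.87%, against 5.11%), so exonic regions were near the background in both directions. DESeq2 called none either, with 45 (3.04%, against 3.15% of all regions) and 39 (2.64%, against 2.25%) at an unadjusted p under 0.05. Both 0 h runs were above both 24 h runs in normalized signal for 384 exonic regions (26.0%, against 25.7% of all regions), and the reverse held for 275 (18.6%, against 19.3%). The count of calls rested on run 3: without it, 31 exonic regions were called higher at 0 h and 36 higher at 24 h, beside 1.70% and 2.27% of all regions. That fit has 1 run at 24 h, which is assumed to vary like the 0 h runs.

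The exon parts differed in the balance of these directions. In the 5' UTR, 2.86% of regions were higher at 0 h and 7.86% higher at 24 h at an unadjusted p under 0.05. In coding sequence the shares were 9.71% and 2.57%, in the 3' UTR 10.8% and 1.89%, and in other exons 10.6% and 1.85%. Start-site regions had 1.91% and 7.68%, and intronic regions 12.2% and 2.09%. The median log2 change from 0 h to 24 h was 0.16 in the 5' UTR, -0.39 in coding sequence, -0.54 in the 3' UTR and -0.67 in other exons, beside 0.33 at start sites, -0.72 in introns and -0.06 over all regions.

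Distance to a transcript start ordered the changes in the same way. These medians are relative to the normalization: with the number of cells as the offset, the median over all regions fell from -0.06 to -0.51 and that near transcript starts from 0.04 to -0.45, while the difference between near and beyond was 0.62 and 0.59. Leaving out 1 run at a time gave a difference between 0.51 (without run 4) and 1.00 (without run 3). Near a transcript start 4.12% of exonic regions were higher at 0 h and 6.39% higher at 24 h, and beyond every start 11.8% and 1.97%. The median log2 change was 0.16 for regions within 100 bp of a transcript start, -0.26 from 100 to 250 bp, -0.42 from 250 to 1000 bp, -0.44 from 1 to 5 kb, -0.80 from 5 to 20 kb and -0.88 beyond 20 kb. Within coding sequence alone it was -0.24 near a transcript start and -0.47 beyond. It was 0.17 near and -0.65 beyond (17 regions) in the 5' UTR, and -0.47 and -0.95 in other exons. The 3' UTR went the other way, with -0.95 near (14 regions) and -0.51 beyond. Intronic regions had the same order as exonic regions together, with a median of -0.17 within 1 kb of a transcript start and -0.83 beyond.

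Summed per run, the mean share of signal was higher at 24 h near transcript starts and lower beyond them. Exonic regions together held 7.15% and 6.97% of all counts in runs 1 and 2 and 6.95% and 6.47% in runs 3 and 4, a mean of 7.06% ± 0.13 (SD, n = 2) at 0 h and 6.71% ± 0.34 at 24 h. Regions near a transcript start held 4.98% and 4.67% at 0 h and 5.10% and 5.16% at 24 h. Regions beyond held 2.18% and 2.30% at 0 h and 1.86% and 1.32% at 24 h. The ratio of the first to the second was 2.29 and 2.03 at 0 h and 2.75 and 3.92 at 24 h, without overlap. The exact permutation p was 0.333 (two-sided) for each of these 4 measures, the smallest that 2 runs against 2 allow. Relative to start-site signal, signal near transcript starts fell, from ratios of 0.0976 and 0.0962 at 0 h to 0.0874 and 0.0777 at 24 h. Relative to intronic signal beyond transcript starts, exonic signal beyond them rose, from 0.133 and 0.131 to 0.149 and 0.152. The exact permutation p was again 0.333 for both. The rise in the share of all counts near transcript starts depended on sparse regions. Among regions found in at least 10% of cells this share changed by -0.13 percentage points from 0 h to 24 h, against 0.304 over all regions. Leaving out 1 run at a time moved it between 0.147 (without run 2) and 0.46 (without run 1), and moved the change beyond transcript starts between -0.38 (without run 4) and -0.92 (without run 3). For all exonic regions together the change was -0.35, and ran from -0.11 without run 4 to -0.59 without run 3.

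By exon part, the 5' UTR held 3.83% and 3.51% of counts at 0 h and 4.04% and 4.30% at 24 h. Coding sequence held 1.47% and 1.54% at 0 h and 1.41% and 1.06% at 24 h, and the 3' UTR 0.823% and 0.878% at 0 h and 0.707% and 0.441% at 24 h. The time-points did not overlap in any of the 3 parts, and the exact permutation p was 0.333 for each, also after adjustment over the 3 parts. In the 5' UTR the change was 0.499 percentage points over all regions and -0.048 among regions found in at least 10% of cells. In that filter it was -0.13 in coding sequence and -0.044 in the 3' UTR. Without run 4 the change was -0.095 in coding sequence (-0.27 with all runs) and -0.14 in the 3' UTR (-0.28), and without run 3 it was -0.45 and -0.41.

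**Figure D3:**
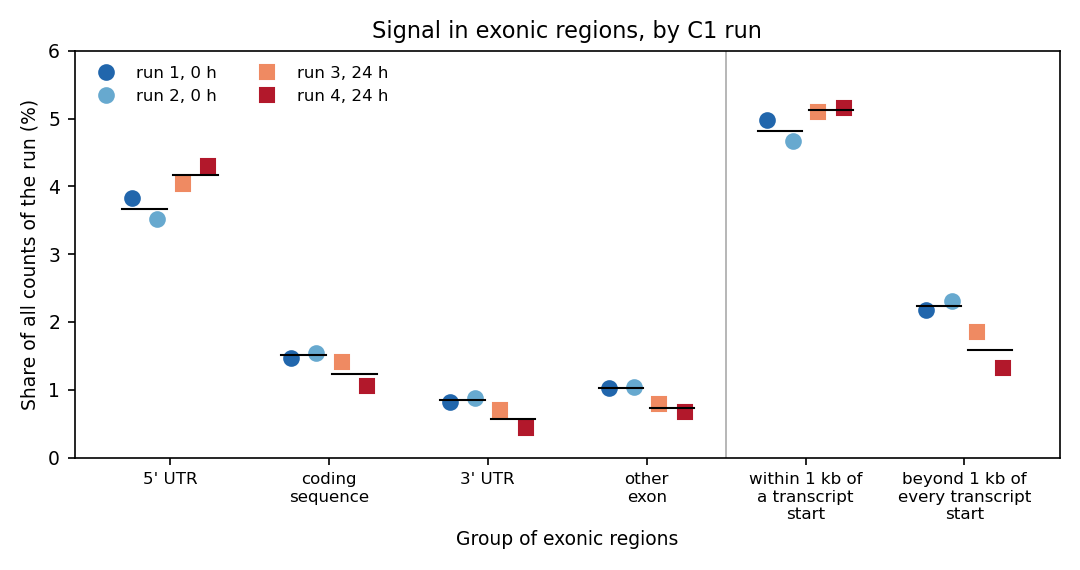
Share of all counts of a C1 run (%) in groups of exonic regions, by exon part and by distance to a transcript start; circles are 0 h runs, squares 24 h runs and bars the means of 2 runs. The 24 h squares lie above the 0 h circles in the 5' UTR and near a transcript start, and below them in the other groups.

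CpG content moved with these changes, and its part in them was not tested beyond the ranges given here. Weighted by counts, the mean GC content of all signal was 59.7% and 58.6% in the 0 h runs and 61.0% and 62.4% in the 24 h runs, and the mean CpG ratio was 0.594, 0.568, 0.658 and 0.725 in runs 1 to 4. Within ranges of the CpG ratio the difference between the groups varied in size and sign. At a ratio up to 0.2 the median log2 change was -0.67 near a transcript start (95 regions) and -0.79 beyond (169 regions), and above 0.8 it was 0.44 near (430 regions) and 0.72 beyond (41 regions). In the range from 0.2 to 0.4 it was -0.52 and -0.92, from 0.4 to 0.6 it was -0.23 and -0.42, and from 0.6 to 0.8 it was 0.02 and 0.08. Thus regions beyond every transcript start had the lower median in the 3 ranges up to 0.6 and the higher one in the 2 above. Intronic regions above 0.8 also had a positive median, 0.44.

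**Figure D4:**
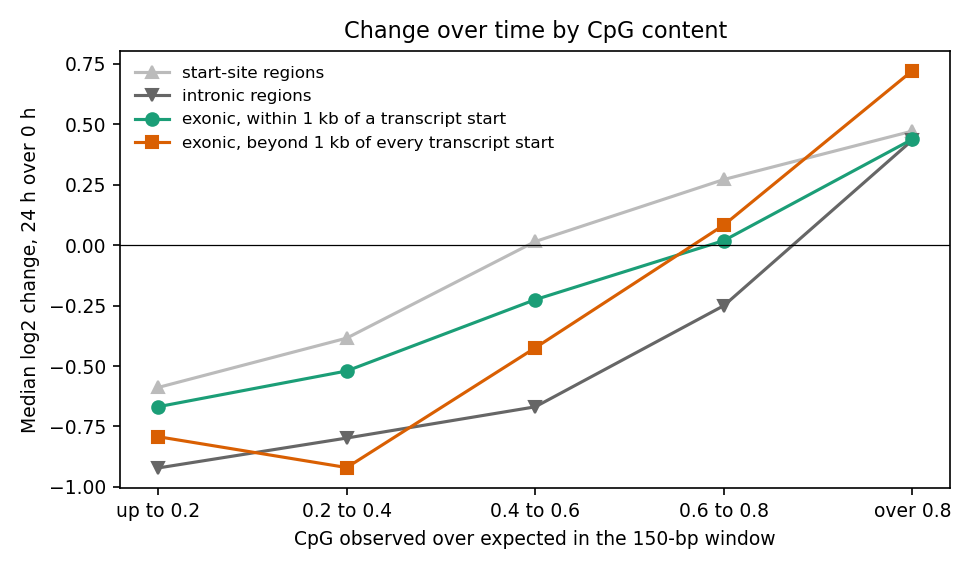
Median log2 change from 0 h to 24 h against the CpG ratio in the 150-bp window, for exonic regions near and beyond transcript starts, start-site regions and intronic regions. All 4 lines lie below -0.5 at the lowest CpG ratio and above 0.4 at the highest.

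Among exonic regions found in at least 20 cells with time-points that did not overlap, those with the smallest p included both promoters of alternative transcripts and distal exons. Higher at 0 h, a region in an exon of 2010111I01Rik, 72.0 bp from a transcript start, had 194 and 178 CPM at 0 h and 24.3 and 14.7 CPM at 24 h, with a log2 change of -3.21 ± 0.73 and an adjusted p of 0.060 in edgeR's test. It passed the test with run totals in place of TMM factors (adjusted p = 0.022), among regions found in at least 10% of cells (0.0049) and without run 3 (0.0076). It did not pass in the other alternatives, where the adjusted p ranged up to 0.77 with DESeq2, while the direction was the same in each. Casp8, the initiator caspase of death receptor signalling, had 152 and 178 CPM at 0 h and 64.7 and 14.7 CPM at 24 h in a 5' UTR region 7161 bp from the gene start and 33.0 bp from a transcript start, with a log2 change of -2.04 ± 0.68 (adjusted p = 0.21, edgeR) that was -1.32 without run 4 and -3.39 without run 3. Atxn7, a subunit of the SAGA complex, had 78.8 and 146 CPM at 0 h, and 24.3 and 0 CPM at 24 h.

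Further regions higher at 0 h were those of Nfix, Pax7 and Dnajb4. The Nfix region was an other-exon region of this nuclear factor I gene. It had 164 and 104 CPM at 0 h and 56.6 and 7.33 CPM at 24 h. The Pax7 region lay in the 3' UTR of this muscle stem cell transcription factor, 94563 bp from the gene start, and had 121 and 146 CPM at 0 h and 64.7 and 0 CPM at 24 h. Dnajb4, a heat shock protein 40 chaperone, had 158 and 167 CPM at 0 h and 56.6 and 36.7 CPM at 24 h in its 5' UTR. The log2 changes of the last pair were -2.05 ± 0.80 and -1.78 ± 0.65, and neither passed the test (adjusted p = 0.28 and 0.24, edgeR). The Pax7 change was -1.02 without run 4, and without run 3 the remaining 24 h run had no count there.

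The 5 regions described here as higher at 24 h all had the 5' UTR as their exon part and lay within 148 bp of a transcript start. The 5' UTR covered 94 of 167 bases in Gpx4, 49 of 146 in Arrdc3 and 39 of 157 in Smarcc1. It covered 41 of 143 bases in Cdkl2 and 113 of 177 in Zfp217. Gpx4 had 97.0 and 62.7 CPM at 0 h and 234 and 367 CPM at 24 h, with a log2 change of 1.86 ± 0.53 (adjusted p = 0.15, edgeR). Arrdc3, an arrestin-domain protein, had 24.3 and 83.6 CPM at 0 h and 194 and 249 CPM at 24 h, a change of 2.15 ± 0.62 (adjusted p = 0.15, edgeR) that was 1.42 without run 1 and 3.15 without run 2. Smarcc1, which encodes a core subunit of the BAF complex, had 6.06 and 41.8 CPM at 0 h and 56.6 and 242 CPM at 24 h, so the 0 h and 24 h runs were separated but run 4 was well above run 3. Cdkl2, a kinase gene, had 24.3 and 0 CPM at 0 h and 137 and 161 CPM at 24 h, and Zfp217 had 24.3 and 0 CPM against 105 and 147 CPM. None of the 5 passed the test with all 4 runs. Without run 3 all 5 passed it, as did the regions higher at 0 h other than that of Dnajb4.

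**Figure D5:**
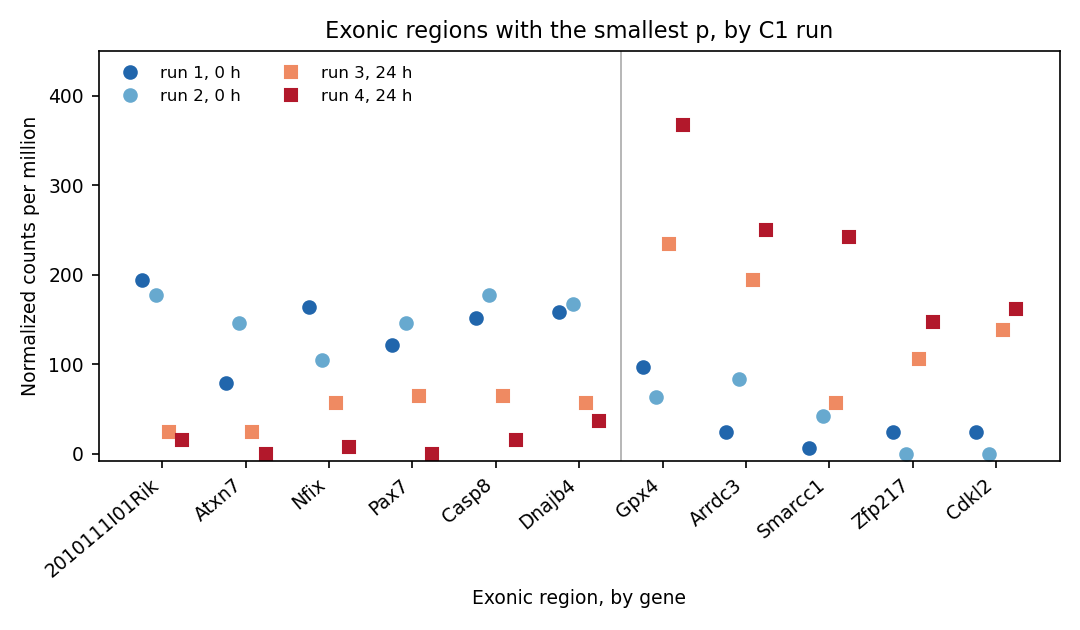
Normalized counts (CPM) in each C1 run for 11 exonic regions with the smallest p among those in at least 20 cells whose time-points did not overlap, ordered by log2 change. Circles are 0 h runs and squares 24 h runs, and the left 6 genes are higher at 0 h and the right 5 at 24 h.

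Genes of pre-B cell receptor signalling had 9 exonic regions in 9 of 44 genes, 8 of them near a transcript start. None passed the adjusted test, 1 was higher at 0 h at an unadjusted p under 0.05 and none at 24 h (7.0% and 5.11% of all regions), and the median log2 change was -0.93, against -0.06 over all regions. The 1 region was that of Vpreb1, which encodes part of the surrogate light chain of the pre-B cell receptor, with 54.6 and 136 CPM at 0 h and 32.3 and 7.33 CPM at 24 h, a log2 change of -2.18 ± 0.94 (adjusted p = 0.32, edgeR). It was an other-exon region, 1521.5 bp from the gene start, and the genome holds 2 copies of its sequence. Vpreb3, of the same family, had 72.8 and 62.7 CPM at 0 h and 48.5 and 14.7 CPM at 24 h. Bcl10, an adaptor that links antigen receptors to NF-kB, was found in most cells of the list, 50, with 121 to 178 CPM in the 4 runs and overlapping time-points. Ptpn6, a phosphatase that dampens receptor signalling, was found in 29 cells, and Stat5a, a transcription factor downstream of the interleukin-7 receptor, in 20.

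B-lineage transcription factors had 34 exonic regions in 22 of 56 genes, 28 of them near a transcript start and 8 in coding sequence, 5 of these in Ikzf1. None passed the adjusted test, 1 was higher at 0 h and none higher at 24 h at an unadjusted p under 0.05 (7.0% and 5.11% of all regions), and the median log2 change was 0.06. Ets1 had a first-exon region 59755 bp into the gene, found in 48 cells, with 115 and 94.0 CPM at 0 h and 194 and 213 CPM at 24 h, a log2 change of 0.94 ± 0.53 (adjusted p = 0.50, edgeR). Runx1, needed for early B cell development, had a region 129374 bp into the gene with 91.0 and 52.2 CPM at 0 h and 80.9 and 0 CPM at 24 h, so the time-points overlapped. Notch1 had one in 28 cells. Tcf4, an E protein, had 36.4 and 62.7 CPM at 0 h and 105 and 88.0 CPM at 24 h.

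Chromatin regulators had 11 exonic regions in 11 of 67 genes, with a median of -0.30. None passed the adjusted test, and 2 were higher at 0 h and 2 at 24 h at an unadjusted p under 0.05, beside 7.0% and 5.11% of all regions. Dnmt1, the maintenance DNA methyltransferase, had 60.6 and 52.2 CPM at 0 h and 154 and 154 CPM at 24 h, and the 24 h runs did not overlap with the 0 h runs. Kdm6b, a histone H3K27 demethylase, had 139 and 157 CPM at 0 h and 72.8 and 44.0 CPM at 24 h in a region 4537 bp from any transcript start. Kdm2b, found in 41 cells, had 121, 62.7, 194 and 80.7 CPM in runs 1 to 4 with no separation of the time-points, and Brd3 and Hdac5 were found in 24 and 21 cells.

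Of the remaining lists, cell cycle genes had 7 exonic regions in 6 of 44 genes, none past an unadjusted p of 0.05. Those of Ccnd2, which encodes cyclin D2, were found in 10 and 11 cells, and the Ccnd3 region, 88373.5 bp into the gene, in 23. Zinc finger genes had 38 regions in 33 of 468 genes, with a median of -0.33. None passed the adjusted test, and 2 were higher at 0 h and 2 at 24 h at an unadjusted p under 0.05, near the 7.0% and 5.11% of all regions. The most often found were Zfp574 in 50 cells and Zbtb49 in 39. Genes with symbols starting Rpl or Rps had 8 regions, but 4 of these were in S6 kinase genes, which share the letters. Of the 4 in ribosomal protein genes, those of Rpl17, Rps14 and Rps2 had overlapping time-points. Rps24 had 30.3 and 52.2 CPM at 0 h and 97.0 and 139 CPM at 24 h and did not pass the test (adjusted p = 0.37, edgeR). Histone genes had 3 regions, in Hist1h1d and Hist1h2be, and the 39 Hox genes and 1464 olfactory and vomeronasal receptor genes had none.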

How the data were processed

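Single-cell ATAC-seq libraries of B3 cells were made by the authors in 4 Fluidigm C1 runs. The submitters' processing notes name Bowtie, Picard, HOMER and the build mm10, with no versions used here. The authors deposited a matrix of counts per region and cell, with whole numbers up to 2 and no normalization, over regions called on pooled-cell ATAC-seq and found in at least 5 cells. Those pooled-cell samples were not used here. The matrix holds 227 cells, and for each of runs 2, 3 and 4 the labels list more single cells than the matrix has columns of that run.

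Cells are not replicates, so counts were summed per C1 run (334 to 7940 counts per cell) and runs were the samples, 2 per time-point. All runs came from 1 line, and p-values measure the spread between runs only. Time, 4OHT and run cannot be told apart. Regions were annotated with GENCODE M21. All 20103 regions were fitted with edgeR 4.0.16 (R 4.3.3) by the quasi-likelihood test with TMM factors and Benjamini-Hochberg adjustment, and with DESeq2 1.42.0 as an alternative. Log2 changes are 24 h over 0 h, ± SE. CPM are counts scaled by library size and TMM factor. Exact permutation tests compared every split of the 4 runs into 2 and 2, and SciPy 1.17.1 gave their Benjamini-Hochberg adjustment. Copies in the genome were counted with BLAST 2.17.0.

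Members and gene lists were chosen with earlier results of these data known. Regions were named if they passed an adjusted p of 0.05, if they were among the 6 with the smallest p in each direction with at least 20 cells and no overlap of time-points (1 of these is not reported here), if they were the 12 found in most cells, if they lay in the 6 genes with most exonic regions (ties by cells), or if they were among up to 6 per list found in most cells. Marker genes were counted by a region within 1 kb of their start. Alternatives changed the scaling, the filter, the runs, the test, the distance limits and the copy limits. The replicate block, the CpG ranges, the stricter transcript sets and the removal of the Gm21738 region were chosen after seeing the data.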

Additional observations from a re-analysis of the deposited data

How the results depend on the processing

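The median log2 change was higher near transcript starts than beyond them in every scaling, filter and left-out run tried. This did not hold within the CpG ranges above 0.6 or within the 3' UTR. The level of the median depended on the scaling. With run totals it was 0.0045 near, and 2 exonic regions were called higher at 0 h (0.135%, against 0.0597% of all regions). With the number of cells as offset it was -0.62 for all exonic regions, -0.45 near and -1.04 beyond, with 20 regions (1.35%, against 1.28% of all) higher at 24 h at an unadjusted p under 0.05, and 489 separated with 0 h higher (33.1%, against 32.8% of all) and 123 with 24 h higher (8.32%, against 8.94%). With values reduced to detected or not it was -0.093 and 0.077 near. Among regions in at least 10% of cells it was -0.060, with 1 call at 0 h (0.352%, against 0.21% of all regions), 27 of 284 members tested (9.51%, against 6.64% of all regions) and 18 (6.34%, against 5.86%) at an unadjusted p under 0.05, and 74 (26.1%, against 21.3%) and 60 (21.1%, against 21.4%) separated. In that filter the change in share was -0.13 points near, -0.30 beyond, -0.048 in the 5' UTR and -0.044 in the 3' UTR. DESeq2 gave 45 and 39 regions at an unadjusted p under 0.05 (3.04% and 2.64%, against 3.15% and 2.25% of all). With start sites of every transcript 508 members were left, with a change in share of -0.653 points. By CpG range (chosen after seeing the data) the median near transcript starts was -0.67, -0.52, -0.23, 0.019 and 0.44, and beyond them -0.92, 0.084 and 0.72 in the ranges 0.2 to 0.4, 0.6 to 0.8 and over 0.8. The cause of these shifts was not tested.

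The column names number the runs within each time-point. Deviations of runs with the same number did not go together between time-points (correlation -0.055 over 6055 regions). Counts per region were sparse, so this correlation cannot decide whether such runs shared more than their number. With this number as a replicate block, 61 exonic regions were higher at 0 h at an unadjusted p under 0.05 (4.13%, against 4.26% of all regions; 100 without it), the median near transcript starts was 0.027, no exonic region was called, and Rps6ka5 was at -0.0037.

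Leaving out each run in turn gave 0 to 31 calls higher at 0 h and 0 to 36 higher at 24 h, 43 to 172 (2.93% to 11.5% of all regions) and 34 to 101 (2.45% to 8.27%) at an unadjusted p under 0.05, and 551 to 637 (36.8% to 41.2% of all regions) and 406 to 502 (29.4% to 34.6%) separated, where 1 run against 2 separates more often than 2 against 2 by construction. The median was -0.38 to 0.050 for all exonic regions, -0.066 to 0.30 near and -1.07 to -0.42 beyond. The first turned positive without run 1, and the second negative without run 3. The lone run of a time-point was then assumed to vary like the others.

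None of the named regions that changed sign had passed the test. Rps6ka5 was at -0.025 with run totals, -0.49 with the cell offset and -0.26 in the 10% filter, Homer1 at -0.43 with the offset and -0.23 in the filter, Dhcr7 at -0.023 and Ing1 at -0.0067 with the offset. The Ikzf1 region at 11769144 was at -0.21 with the offset and -0.066 in the filter, that at 11753995 at -0.089 with the offset, and those at 11707784 and 11769260 at 0.57 and 0.54 with detection. Without single runs, Homer1 ranged from -0.49 to 0.45, Rps6ka5 from -0.44 to 0.36, Rnf180 from -2.13 to 0.046, and the Ikzf1 regions at 11707784, 11761208, 11769144 and 11769260 from -1.75 to 3.81, -2.19 to 0.39, -0.60 to 0.76 and -0.88 to 1.06.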
